A study of Anas platyrhynchos with 8 samples.

Results

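The apelin and angiotensin peptide systems were examined in duck abdominal fat through 7 genes: the ligand APELA, the ligand APLN, their receptor APLNR, the precursor AGT, the angiotensin-converting enzyme ACE, and the angiotensin II receptors AGTR1 and AGTR2. The genes were taken by symbol, without regard to case, from a deposited table of 48592 mRNA transcripts with 13213 symbols. Rows were found for 6 of the 7, 22 rows in all, of which 13 held reads. APLN had no row under that symbol and was not analysed here. The set was chosen by measured values, the log2 fold change of APELA between the fat groups, which was among the largest. Differences of its genes between the groups are therefore given as a description and not as a test.

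The ducks (Anas platyrhynchos) belonged to an F2 population, were kept under 1 set of breeding conditions with free access to feed and water, and were sampled at 42 days of age. The 4 HF libraries come from ducks with high, and the 4 LF libraries from ducks with low, abdominal fat ratios. Whether each library holds the RNA of 1 duck or of several is not in the labels, and neither is sex. Any p-value therefore covers the spread among the 8 libraries, which may be technical.

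Apelin and the second ligand, known as ELABELA or Toddler and encoded by APELA, are small secreted peptides that act through the same G protein-coupled receptor, APLNR. In mammals apelin is made by adipocytes among other cells, and the receptor is abundant on endothelium. In the angiotensin system the precursor angiotensinogen (AGT) is cut to a shorter peptide, ACE converts that peptide to angiotensin II, and AGTR1 and AGTR2 receive it. AGTR1 signals mainly through Gq proteins and raises vascular tone, and AGTR2 is often described as opposing it.

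The mRNA table held between 12696240 and 30836178 estimated counts per library. Levels are counts relative to library size (CPM), scaled by the trimmed mean of M values (TMM), unless FPKM, the authors' value per length, is named. Of 10 adipocyte markers, 9 were measured, and the fatty acid binding protein FABP4 stood between 4787 and 8440 CPM. Their levels differed widely: over all libraries FABP4 held 1183685 counts, CIDEC 19870 and ADIPOQ 13516. Adipocyte markers were thus present in this tissue labelled as fat. Summed adipocyte markers ranged from 32721 to 48289 CPM in HF and from 45604 to 87854 CPM in LF, with LF-4 the highest. The triglyceride lipase PNPLA2 alone made up 11703 to 23944 CPM of this sum in HF and 25957 to 64301 CPM in LF. Without PNPLA2 the sums overlapped, from 19388 to 24904 CPM in HF and from 19647 to 26204 CPM in LF. A sum does not show single markers. Of the 9, 3 had a positive and 6 a negative log2 fold change (HF over LF), from -1.16 to 2.29. EdgeR called 0 of 9, against 0.647% of all sums tested, and DESeq2 3 of 9, against 5.8%. The W chromosome is carried by female birds. Rows whose descriptions name W linkage or Wpkci summed to 1818 to 4226 counts in the HF libraries, 2861 in LF-4 and at most 8 in LF-1 to LF-3. W content and fat group therefore cannot be told apart, except through LF-4.

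APELA was lower in every HF library than in any LF library. Its level was 3.36, 6.87, 2.25 and 7.87 CPM in HF-1 to HF-4. It was 48.3, 54.1, 51.7 and 280.1 CPM in LF-1 to LF-4. LF-1 to LF-3 lay close together, LF-4 stood far above them, and the groups did not overlap: the lowest LF library was 6.14-fold above the highest HF library.

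The means of APELA were 5.08 ± 2.71 CPM in HF and 109 ± 114 CPM in LF (SD, n = 4 each), 21.3-fold lower in HF. Shown apart, LF-4 was 5.45-fold above the mean of the other LF libraries, which was 51.4 ± 2.91 CPM (SD, n = 3) and itself 10.1-fold above HF. The log2 fold change from edgeR's quasi-likelihood fit was -4.43 ± 0.72 (SE), and -3.35 without LF-4. With a covariate for W-described transcripts, a fit in which HF is compared with LF-4 alone, it was -5.80 ± 0.46 (SE). The HF libraries and LF-4 hold these transcripts. LF-4, the highest APELA library, stood 55.1-fold above the HF mean, and that fit restates this difference. Its SE holds no spread among LF libraries with these transcripts. The part of these transcripts in the APELA values was thus not tested. In bulk tissue, fewer cells of a type and less RNA per cell cannot be told apart. Summed endothelial markers, 13 of 14 measured, ranged from 3589 to 7452 CPM in HF and from 6159 to 8631 CPM in LF. VWF held the most counts of them, 482755 over all libraries, and EMCN was at 0 in 5 of 8 libraries. Of 12 tested, 4 had a positive and 8 a negative log2 fold change, from -0.76 to 0.10. EdgeR called 0 of these markers, against 0.647% of all sums tested, and DESeq2 1, against 5.8%. Their part in the APELA difference was not tested.

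All APELA reads came from 1 assembled transcript model, TCONS_00026636. The authors' annotation gives this model the symbol APELA but describes it by its match to a hypothetical penguin protein (Aptenodytes forsteri). The other APELA row, XM_027456221.1, is described as the apelin receptor early endogenous ligand and was at 0 in all 8 libraries. The counts of the model were whole numbers in every library, from 50 in HF-3 to 6912 in LF-4. Together with its FPKM they imply a length of about 2237 bases. The APELA values are thus those of the assembled model. Whether this model is the APELA gene, and whether its reads cover the peptide's coding part, was not tested.

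**Figure D1:**
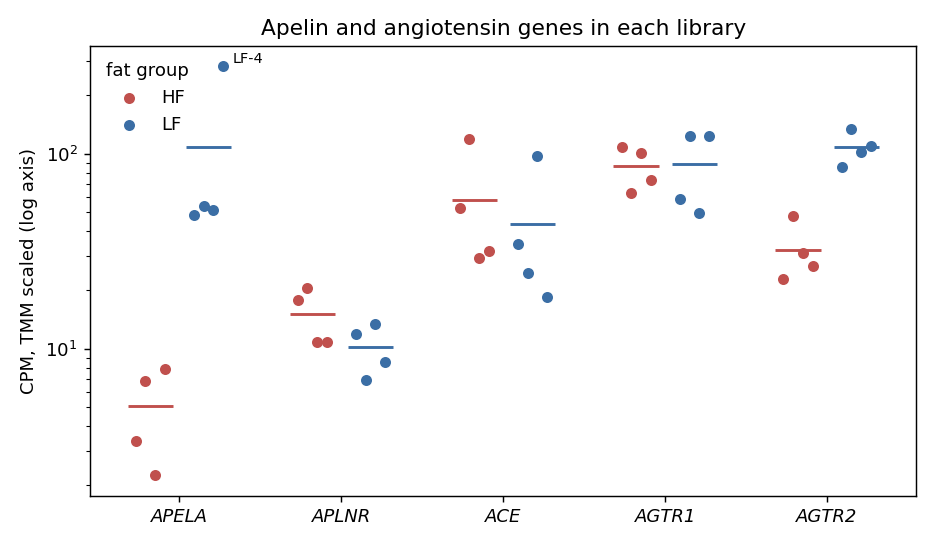
CPM with TMM scaling (log axis) of the 5 tested genes in each library, HF in red and LF in blue; points are libraries and short lines group means. APELA and AGTR2 are the genes whose groups do not overlap, and LF-4 stands at 280.1 CPM for APELA.

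The receptor APLNR showed no such separation. Its level was 17.7, 20.5, 10.8 and 10.8 CPM in HF-1 to HF-4. The LF libraries stood at 11.9, 6.93, 13.3 and 8.51 CPM in the same order of numbers. The groups overlapped, with HF-2 the highest library and LF-2 the lowest. The means were 15.0 ± 4.93 CPM in HF and 10.2 ± 2.95 CPM in LF (SD, n = 4 each), with a log2 fold change of 0.56 ± 0.29 (SE). All of its reads were in 1 row, XM_013110112.2. A row described as apelin receptor 2 of chicken, with the symbol aplnr-a, was at 0 in all libraries.

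Per length, the mRNA level of APELA was set beside that of APLNR. Peptide and receptor protein were not measured, and the other ligand, APLN, had no row. The APELA difference, by which the set was chosen, enters this comparison. In HF, APELA stood at 2.29 ± 1.24 FPKM and APLNR at 11.5 ± 3.92 FPKM. In LF, APELA stood at 46.8 ± 48.4 FPKM and APLNR at 7.60 ± 2.39 FPKM (SD, n = 4 each). APELA was below APLNR in all 4 HF libraries and above it in all 4 LF libraries.

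The precursor AGT, the single source of angiotensin peptides, was near the limit of detection. Of its 9 rows, 8 were at 0 in every library, and the row XM_021272891.2 held 7 counts in all, 1 in HF-3, 1 in LF-3 and 5 in LF-4. A count of 0 allows up to 3 counts, or 0.0973 to 0.236 CPM before TMM scaling over these libraries. AGT mRNA was thus at or near the limit of detection at this depth in both groups, and no fold is given. In mammals adipocytes make angiotensinogen.

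ACE, which makes angiotensin II and is typical of endothelium in mammals, was well expressed and varied more within groups than between them. It stood at 52.6, 118.6, 29.1 and 31.6 CPM in HF-1 to HF-4. In LF-1 to LF-4 it stood at 34.3, 24.6, 97.8 and 18.4 CPM. HF-2 and LF-3 were the high libraries of their groups and the ranges overlapped. The means were 58.0 ± 41.8 CPM in HF and 43.8 ± 36.6 CPM in LF (SD, n = 4 each).

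The log2 fold change of ACE was 0.40 ± 0.59 (SE). It ran from -0.21 to 1.17 as single libraries were left out, and was negative without HF-2 alone, at -0.21. With a covariate for W-described transcripts, a fit in which HF is compared with LF-4 alone, it was 1.65 ± 0.99 (SE). The libraries HF-2 and LF-3 also held the highest sums of endothelial markers in their groups, 7452 and 8631 CPM, and were the highest of their groups for APLNR. The part of endothelial content in ACE and APLNR was not tested. The main row, XM_027445654.1, took 80.3% ± 13.2 of ACE counts in the HF libraries, and its share in the LF libraries was 72.5% ± 8.74 (SD, n = 4 each).

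AGTR2, the type 2 receptor of angiotensin II, was lower in every HF library than in any LF library. Its level was 22.9, 47.6, 31.0 and 26.5 CPM in HF-1 to HF-4. It was 85.9, 134.2, 102.3 and 109.9 CPM in LF-1 to LF-4. HF-2 was the highest of the HF libraries and LF-1 the lowest of the LF libraries, and LF-4 lay among the other LF libraries. The means were 32.0 ± 10.9 CPM in HF and 108 ± 20.1 CPM in LF (SD, n = 4 each), 3.38-fold lower in HF, with a log2 fold change of -1.76 ± 0.24 (SE).

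AGTR2 reads were shared between a RefSeq row, XM_005031177.4, and an assembled model, TCONS_00044162. The RefSeq row took 84.1% ± 2.79 of the counts in the HF libraries and 79.5% ± 10.3 in the LF libraries (SD, n = 4 each), and LF-1 had the lowest share at 64.5%. Taken alone, the log2 fold change was -1.70 ± 0.30 for the RefSeq row and -2.03 ± 0.33 for the model (SE), so both rows were lower in HF.

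AGTR1, the type 1 receptor, had nearly the same mean in both groups. Its level was 107.6, 62.7, 100.2 and 73.0 CPM in HF-1 to HF-4. LF-1 and LF-3 stood at 58.4 and 49.6 CPM, and LF-2 and LF-4 at 123.5 and 123.7 CPM. The HF values lay inside the LF range. The means were 85.9 ± 21.4 and 88.8 ± 40.4 CPM (SD, n = 4 each), with a log2 fold change of -0.05 ± 0.32 (SE), and from -0.25 to 0.15 as single libraries were left out. With the W covariate, where HF is compared with LF-4 alone, it was -0.53 ± 0.46 (SE). The difference between the means was smaller than the spread between libraries.

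The ratio of AGTR2 to AGTR1 in summed FPKM was 0.216, 0.773, 0.314 and 0.371 in HF-1 to HF-4. In LF-1 to LF-4 it was 1.43, 1.11, 2.08 and 0.901. Its mean over the HF libraries was 0.418 ± 0.245 and over the LF libraries 1.38 ± 0.516 (SD, n = 4 each), and the groups did not overlap. The AGTR2 difference enters this ratio, and AGTR1 had nearly the same mean in both groups, so the ratio is not a separate result. AGTR1 was the more abundant of both receptors per length in all HF libraries, and AGTR2 in LF-1 to LF-3.

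**Figure D2:**
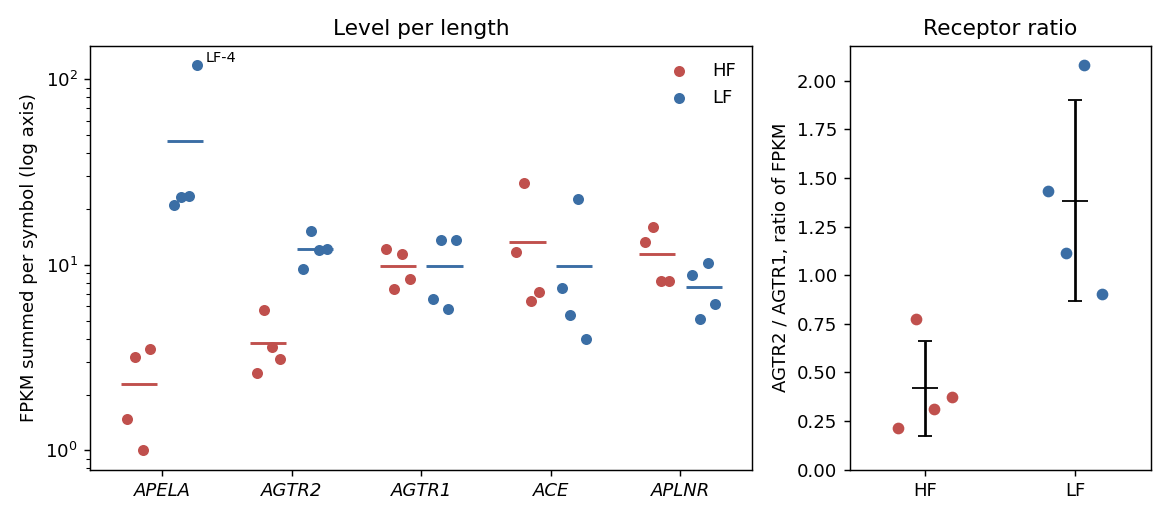
Left, FPKM summed per symbol (log axis) of 5 genes in each library with group means as lines; right, the ratio of AGTR2 to AGTR1 FPKM, with the mean and SD of 4 libraries in black. The ratio runs from 0.216 to 0.773 in HF and from 0.901 to 2.08 in LF.

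The AGTR1 total was divided among 5 rows in a way that changed from library to library. The rows imply lengths of 8637 to 8730 bases, so they are close in length, and their counts are not whole numbers. XM_027468302.1 held 1083, 270 and 131 counts in HF-1, HF-3 and HF-4 and was at 0 in HF-2 and all LF libraries. XM_027468301.1 took 16.1% ± 11.1 of the counts in the HF libraries and 36.6% ± 20.4 in the LF libraries (SD, n = 4 each), with ranges that overlapped. The split between AGTR1 rows is therefore uncertain, and the sum is the value used here.

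**Figure D3:**
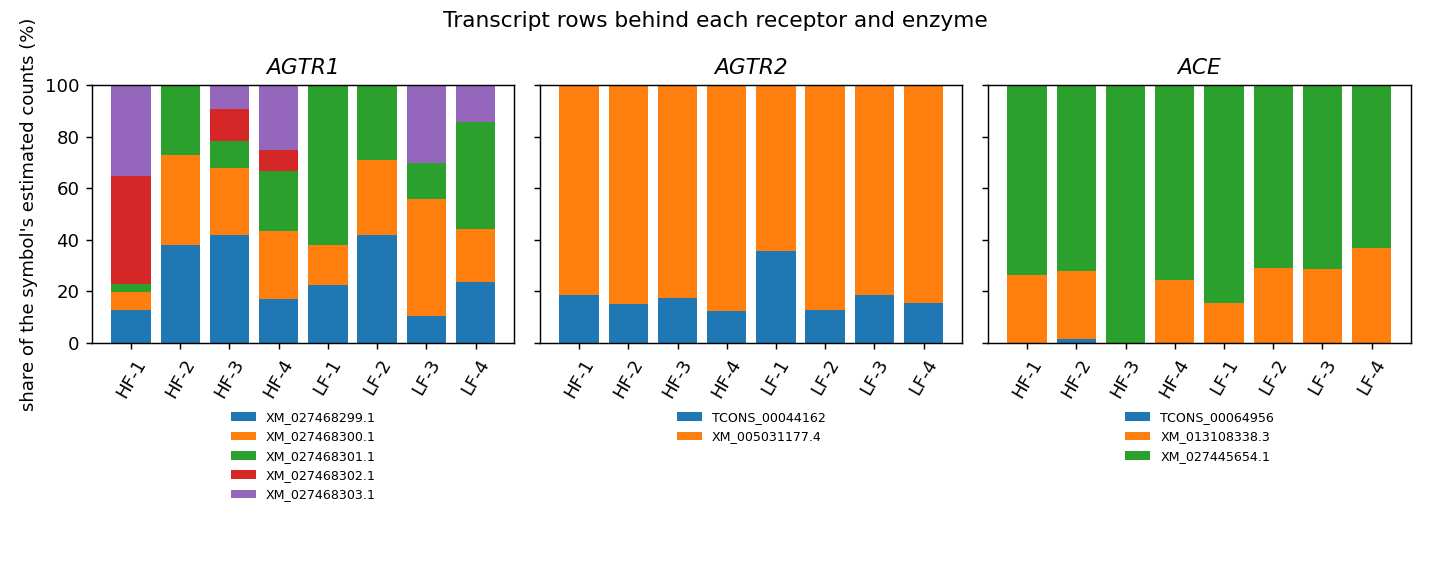
Share of each symbol's estimated counts (percent) held by each of its transcript rows in the 8 libraries, for AGTR1, AGTR2 and ACE. AGTR1 has a different mix in each library, and 1 row leads in every library for AGTR2 (64.5% in LF-1 at the lowest) and ACE.

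By mean FPKM, the order in HF was ACE at 13.3 ± 9.93, APLNR at 11.5 ± 3.92, AGTR1 at 9.88 ± 2.32, AGTR2 at 3.77 ± 1.38 and APELA at 2.29 ± 1.24 (SD, n = 4). The ranges of the leading 3 overlapped, as did those of the last pair. In LF the order was APELA at 46.8 ± 48.4, AGTR2 at 12.2 ± 2.36, AGTR1 at 9.92 ± 4.32, ACE at 9.88 ± 8.58 and APLNR at 7.60 ± 2.39 (SD, n = 4). Those from AGTR2 to APLNR overlapped with their neighbours. Among 12278 symbols above 0 in HF, APELA was above 32.7%, and among 12304 in LF it was above 90.3%.

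Of the 7 genes, 5 passed the filter on low counts, each with at least 50 counts in every library. APELA and AGTR2, 2 of 5, were past an adjusted p of 0.05 in edgeR's fit, as were 0.647% of all 10511 sums per symbol tested. Their groups did not overlap in 2 of 5, against 9.19% of all sums tested. Since the contrast was known when the genes were chosen, nothing is read from these counts. APELA stayed past the threshold in 3 of 8 fits that left out a library, and not without HF-1, HF-2, HF-3, HF-4 or LF-3. AGTR2 stayed in 5 of 8, and lost the call in the fits lacking HF-1, HF-3 and HF-4 in turn. A covariate for W-described transcripts leaves LF-4 alone to compare with HF. In that fit the log2 fold change of AGTR2 was -1.78 ± 0.34 (SE). As single transcript rows, none of the member rows passed, and 0.0168% of 23879 rows tested did.

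Among other genes that process apelin peptides or act below APLNR, 1 of 29 tested fell in HF and 0 rose, against 0.352% and 0.295% of all sums tested. The median log2 fold change of the list was -0.04, and 0.0012 over all sums tested. This list and those below were written with earlier results of these data known, so nothing is read from the counts of genes called in them. KLF4, a transcription factor of endothelium and other cells, fell from 18.1 ± 3.92 CPM in LF to 8.38 ± 1.10 CPM in HF (SD, n = 4 each, log2 fold change -1.11 ± 0.19, edgeR adjusted p = 0.0419). KLF4 lies on chromosome Z in the reference assembly IASCAAS_PekinDuck_T2T. The HF libraries and LF-4 hold W-described transcripts, so sex chromosome content and fat group cannot be told apart for KLF4, except through LF-4. The part of sex chromosome content in the KLF4 values was not tested. Among the fits without 1 library it passed only without LF-4, with edgeR adjusted p from 0.0364 to 0.147. Its log2 fold change ran from -1.20 to -1.01 over these fits. The fit with the W covariate compares HF with LF-4 alone, and no call is taken from it.

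The remaining genes of this list did not pass. GNAI1, an inhibitory G protein subunit through which APLNR signals, was at 183 ± 23.4 CPM in HF and 255 ± 46.8 CPM in LF (SD, n = 4 each, edgeR adjusted p = 0.201). FURIN, a protease that cuts propeptides, was at 32.9 ± 2.33 CPM and 30.9 ± 10.9 CPM (SD, n = 4 each, edgeR adjusted p = 0.878). The neprilysin gene MME, whose product degrades apelin and angiotensin peptides, was low at 0.524 ± 0.145 CPM and 0.427 ± 0.383 CPM (SD, n = 4 each).

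Of 22 genes in the list of angiotensin-processing enzymes and receptors, 16 were tested, 1 rose and 0 fell in HF, against 0.295% and 0.352% of all sums tested. The median log2 fold change of the list was 0.22, and 0.0012 over all sums. PRCP, a lysosomal prolylcarboxypeptidase that removes the last residue of angiotensin II, stood at 117.5, 135.6, 157.7 and 101.8 CPM in HF-1 to HF-4. It stood at 60.1, 67.1, 78.7 and 55.5 CPM in LF-1 to LF-4, below every HF library. PRCP rose from 65.3 ± 10.1 CPM in LF to 128 ± 24.1 CPM in HF (SD, n = 4 each, log2 fold change 0.97 ± 0.17, edgeR adjusted p = 0.0391). The call was lost when any 1 library was left out (edgeR adjusted p from 0.0606 to 0.106). The log2 fold change stayed between 0.86 and 1.07 in those fits. With the W covariate HF is compared with LF-4 alone, so that fit gives no call here.

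AGTRAP, which binds AGTR1 and promotes its internalization, was at 17.5 ± 5.49 CPM in HF and 10.01 ± 1.51 CPM in LF (SD, n = 4 each, edgeR adjusted p = 0.151). The lysosomal protease CTSD was at 941 ± 372 and 543 ± 66.2 CPM (SD, n = 4 each, edgeR adjusted p = 0.171), with HF-3 at 1493 CPM. Macrophage markers, 8 of 8 measured and none at 0, summed to 1067 to 1491 CPM in HF and 642 to 1178 CPM in LF. All 8 had a positive log2 fold change. EdgeR called 0 of 8, against 0.647% of all sums tested, and DESeq2 2 of 8, against 5.8%. An unadjusted p under 0.05 in edgeR's fit was reached by 5, against 15% of all sums tested. Their part in PRCP, CTSD and AGTRAP was not tested.

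ATP6AP2, an accessory part of the vacuolar proton pump, was at 102 ± 17.8 CPM in HF and 84.3 ± 10.6 CPM in LF (SD, n = 4 each, edgeR adjusted p = 0.432). The aminopeptidase ANPEP was at 133 ± 41.2 and 115 ± 68.2 CPM (SD, n = 4 each). ENPEP, which makes angiotensin III, held 1 count over HF and 2 over LF, and the Mas receptor MAS1 held 2 counts over HF and 8 over LF. Both were too low to be tested.

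Of 26 genes in the list of angiotensin receptor signalling and aldosterone action, 19 were tested. With edgeR 0 passed, against 0.647% of all sums tested, and 7 had an unadjusted p under 0.05, against 15%. DESeq2 called 5 of 19, against 5.8% of the sums it gave an adjusted p, and limma on FPKM called 0, against 0.897%. The median log2 fold change was -0.01. ROCK1, a kinase downstream of RhoA, was at 121 ± 13.1 CPM in HF and 177 ± 6.19 CPM in LF (SD, n = 4 each, edgeR adjusted p = 0.0674). PRKCB, a protein kinase C, was at 29.6 ± 2.46 and 17.0 ± 3.43 CPM (SD, n = 4 each, edgeR adjusted p = 0.075). In this list the groups did not overlap for 6 of the 19, against 9.19% of all sums tested. ROCK1 and PRKCB were among the 6, in opposite directions. NR3C2, the mineralocorticoid receptor, was at 126 ± 44.4 CPM in HF and 127 ± 20.6 CPM in LF (SD, n = 4 each).

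**Figure D4:**
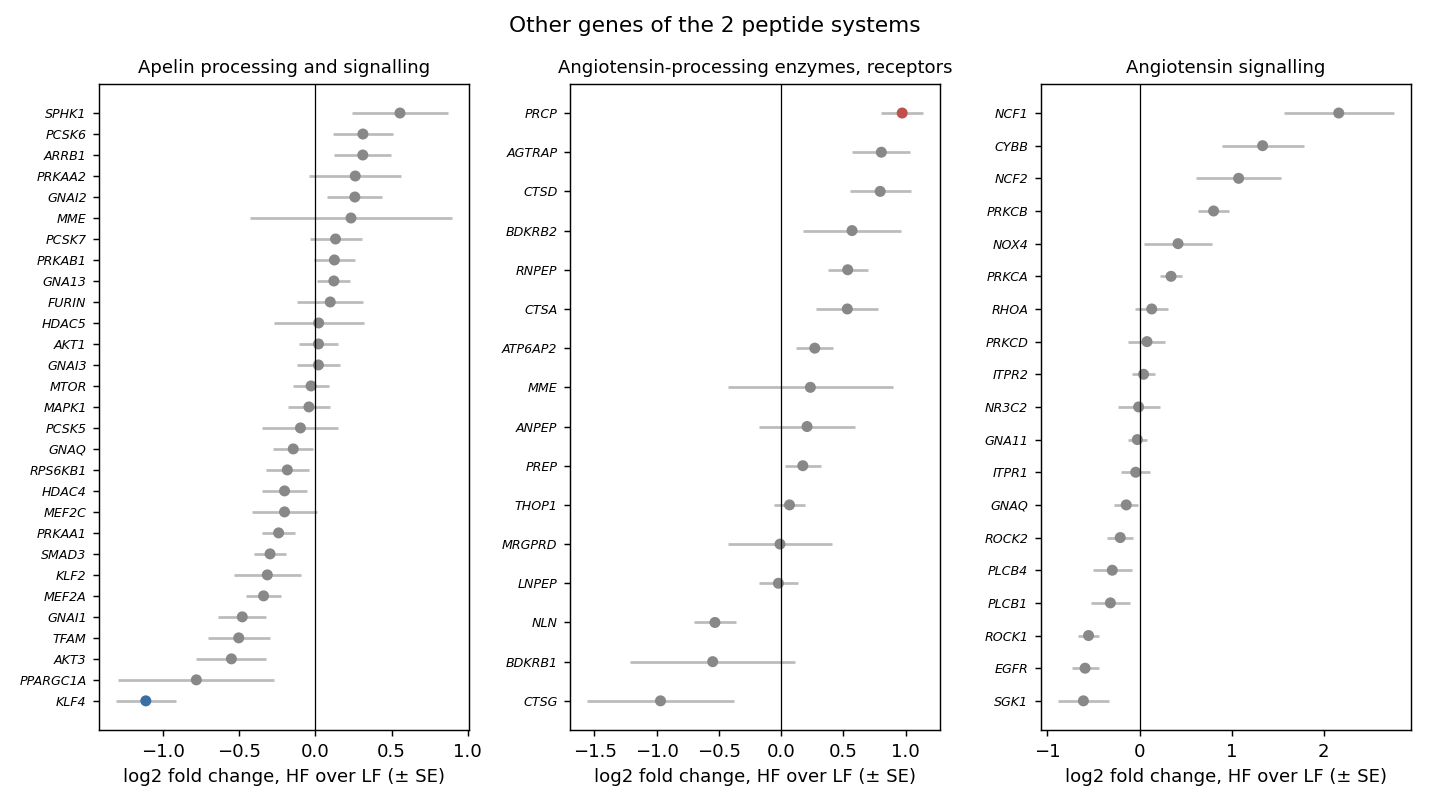
Log2 fold change, HF over LF, with its SE for the tested genes of 3 lists: apelin processing and signalling, angiotensin-processing enzymes and receptors, and angiotensin signalling. Grey points did not pass edgeR's threshold; KLF4 (blue, -1.11) fell and PRCP (red, 0.97) rose in HF.

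The profiles most like that of APELA were found by the root mean square difference of mean-centred log2 CPM over the 8 libraries. The nearest was ZBTB16, a zinc finger transcription factor, at a distance of 0.76 log2 units. ZBTB16 stood at 5.90 ± 2.78 CPM in HF and 59.2 ± 26.9 CPM in LF (SD, n = 4 each). PROKR1, a prokineticin receptor, followed at 0.96. Next came RASL11A at 1.05, GABRB2 at 1.09, FKBP5 at 1.13, GADD45G at 1.22, KCNH1 at 1.23 and UNC79 at 1.29. Some of these were low in HF. KCNH1 stood at 0.0898 to 0.506 CPM there, GABRB2 at 0.0898 CPM in HF-3, and RASL11A at 0.539 CPM in HF-1 and HF-3. Their distances from APELA are thus less certain. FKBP5, a co-chaperone of steroid receptors, was highest in LF-4, at 46.6 CPM against 10.7 to 17.9 CPM in the other LF libraries. Without LF-4 the nearest 8 shared 3 with this list (GABRB2, PROKR1 and ZBTB16).

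**Figure D5:**
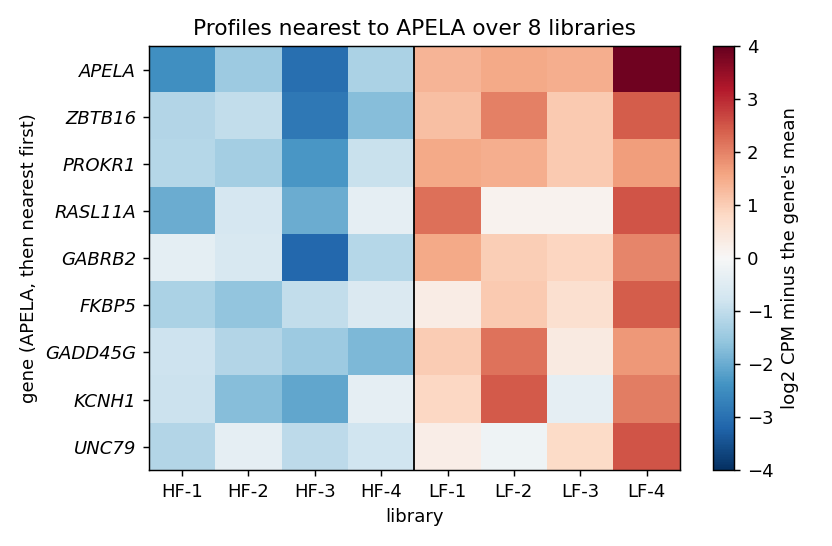
Log2 CPM minus the gene's mean over 8 libraries, for APELA and the 8 genes nearest to it, nearest at the top; red is above and blue below the gene's mean. The 4 HF libraries are left of the line, and LF-4 has the highest APELA value, 3.88 above its mean.

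For AGTR2 the nearest profile was PDK4, an inhibitory kinase of the pyruvate dehydrogenase complex, at 0.33 log2 units, then STIMATE and RHPN2. PDK4 stood at 360 ± 73.3 CPM in HF and 995 ± 135 CPM in LF (SD, n = 4 each). The nearest to APLNR were ORAI1, a calcium channel subunit, at 0.14, FUT7 and FZD8. The nearest to AGTR1 was MRC1, the mannose receptor, at 0.17, then TRAPPC2 and OSTC. The nearest to ACE were GPR55 at 0.31, CSDC2 and KLRF1, whose levels were low, at most 2.41 CPM in any library for GPR55. The measure is a distance in log2 units, so genes that vary little between libraries lie close to many others by it. It spans both groups, so the genes nearest APELA and AGTR2 share their group difference through the matching itself.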

How the data were processed

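Per the labels' protocols, abdominal fat was frozen, its RNA was taken up in Trizol and cDNA libraries were read on an Illumina HiSeq. The authors deposited estimated counts and FPKM per transcript and library, per the file headers. Bowtie2 2.2.8 and TopHat2 2.1.1 are named, without a role, in the submitters' processing notes. Neither the genome build, the quantifier nor the strandedness is stated in the sources used here, so reads of overlapping antisense genes cannot be told apart. Rows at 0 in all libraries numbered 10541. Rows without a symbol (2137) held 0.839% to 0.965% of counts and stayed out of sums.

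Estimated counts were summed per symbol, rounded and fitted with edgeR 4.0.16 (R 4.3.3), with TMM scaling, filterByExpr, group as the single term and Benjamini-Hochberg adjustment over all 10511 sums. The standard error is the size of the log2 fold change over the square root of F. The fit was also run on counts simulated under edgeR's own model. No library was made to stand apart there, so that run says nothing on APELA with its high LF-4 value. Alternatives used DESeq2 1.42.0, limma 3.58.1 on log2(FPKM + 1) (pseudocount also 0.1, mean FPKM of at least 0.5), other scalings, no filter, the replicate number, a W covariate (libraries above 100 W-described counts) and leaving out each library. Limits of 3 counts cover counting error only.

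Members, 5 pathway lists and 9 marker lists were chosen with earlier results of these data known. Genes named are the members, of each pathway list up to 6 genes that passed or, if under 2 did, the 2 leading by p, MAS1, ATP6AP2, MME, ENPEP, ANPEP and FURIN, the 8 profiles nearest APELA and the 3 nearest each other member. Some genes of the rule are not reported here. Other genes were picked for naming once their values were known. The reference gene table of IASCAAS_PekinDuck_T2T was used for names and chromosome Z only. It holds no gene under the symbol APELA. It lists APLN with 2 transcripts, of which 0 are in the mRNA table. The lncRNA table carries no symbols and was not used here.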

Additional observations from a re-analysis of the deposited data

Results flagged for a closer look

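In LF, the APELA value of LF-4, 280.1 CPM, lay far from the other libraries of its group. So did the PRKCB value of LF-4, 11.8 CPM, which was lower than in the other LF libraries, and the values of LF-3 for GPR55, 1.48 CPM, and CSDC2, 1.16 CPM, which were higher. The remaining values that stood apart are single libraries with 1 or 2 counts beside libraries at 0: AGT in HF-3 (0.0449 CPM), ENPEP in HF-4 (0.0460 CPM) and LF-4 (0.0810 CPM), and MAS1 in HF-4 (0.0920 CPM). In all, 8 of 86 groups of 4 libraries held such a value. The rule is set to flag about 1 in 20 by chance. A single library above 0 beside libraries at 0 is always flagged, so the count is not compared with that rate.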

How the results depend on the processing

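The log2 fold change of APELA was negative under every alternative run, from -5.80 with the W covariate (a fit in which only LF-4 is compared with HF) to -3.35 without LF-4, and it ran from -4.74 to -3.35 as single libraries were left out. AGTR2 ran from -2.03 to -1.50 and moved by less than the spread between libraries under every alternative run. DESeq2 gave no p for APELA. The number of sums past the threshold, 68, was 596 with DESeq2, 128 with the W covariate, 9 with the replicate block and 2 to 92 without single libraries. In the apelin list DESeq2 called 2 of 28 genes with an adjusted p, against 5.8% of all such sums. Limma on FPKM called 1, against 0.897% of all sums it tested. The replicate block gave 0, against 9 of all sums, and the fits without single libraries 0 to 1, against 2 to 92 of all sums. In the list of angiotensin-processing enzymes DESeq2 called 3 of 15 and limma 1, against the same shares. With the block, or when any 1 library was left out, 0 passed, against the same 9 and 2 to 92 of all sums. So few sums passed in these fits that nothing is read from the list counts. In the list of angiotensin signalling DESeq2 called 5 of 19, and in the hypoxia list 1 of 18, against the same 5.8%. The cause was not tested. The replicate numbers are not shown to pair the libraries: deviations of same-numbered libraries correlated from -0.215 to 0.028, and 0 of 8 libraries correlated best with its own number. With log2(FPKM + 1) 4 of the 8 profiles nearest APELA were shared. AGT, ENPEP and MAS1 are limited by depth.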

Other observations

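Other vasoactive peptide systems showed no gene past the threshold. Of 26 genes 16 were tested, edgeR called 0, against 0.647% of all sums tested, and 0 had an unadjusted p under 0.05, against 15%. DESeq2 called 0, against 5.8% of the sums with an adjusted p, and limma 0, against 0.897%. The median log2 fold change was -0.06. NPR3, the natriuretic peptide clearance receptor, was abundant, with a mean of 2477 ± 449 CPM over the HF libraries and 2432 ± 615 CPM over the LF libraries (SD, n = 4 each). The guanylyl cyclase receptor NPR2 was at 40.5 ± 9.63 and 32.1 ± 5.31 CPM, and the endothelin EDN3 at 1.58 ± 0.568 and 3.41 ± 2.84 CPM (SD, n = 4 each).

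Among genes that respond to low oxygen, of which apelin is one in mammals, 18 were tested. EdgeR called 0, against 0.647% of all sums tested. An unadjusted p under 0.05 was reached by 3 of 18, against 15% of all sums tested. DESeq2 called 1, against 5.8%, and limma 0, against 0.897%. The median log2 fold change was -0.20. PFKFB3, which raises glycolysis, was at 25.6 ± 5.47 CPM in HF and 55.5 ± 21.2 CPM in LF (SD, n = 4 each, edgeR adjusted p = 0.0993). NDRG1 was at 547 ± 78.6 and 834 ± 234 CPM (SD, n = 4 each, edgeR adjusted p = 0.203).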
